A study of Mus musculus with 6 samples.

Results

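Adamts1, Adamts2, Adamts4, Adamts5, Adamts9, Adamts10, Adamts12, Adamts15 and Adamts16 encode secreted metalloproteases of the ADAMTS family, and their mRNA was followed in the stromal vascular cells of inguinal white adipose tissue (iWAT) across age and cold. The 9 genes were taken by symbol from the 31053 rows of the feature table and are 9 of the 19 Adamts genes listed there. ADAMTS proteases act outside the cell on the extracellular matrix, and carry a zinc-dependent catalytic domain followed by thrombospondin repeats that hold them to their substrates. ADAMTS1, ADAMTS4, ADAMTS5, ADAMTS9 and ADAMTS15 cleave versican and related proteoglycans, ADAMTS2 removes the amino-terminal propeptide from fibrillar procollagens, ADAMTS10 binds fibrillin microfibrils, and ADAMTS12 cleaves cartilage oligomeric matrix protein. ADAMTS16 is less well characterised, with fibronectin among the substrates described for it. In adipose tissue, fibroblastic progenitors lay down and remodel the matrix in which adipocytes form and enlarge.

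Young (9 weeks) and aged (57 weeks) male C57BL/6 mice with no engineered allele were all first housed at 30 °C for 3 weeks. They then stayed at thermoneutrality (TN, 30 °C) or were moved to 6 °C for the last 3 days (3D cold) or for 14 days (14D cold). Live stromal vascular cells were sorted free of CD45+ immune cells and profiled by droplet single-cell RNA-seq of mRNA 3′ ends, with 1 library for each age and temperature. The age comparison therefore set 3 aged against 3 young libraries and the temperature comparison 2 libraries at each temperature. The number of mice behind a library is not given in the sources used here. The methods state that stromal cells of several mice were combined only where this is said, and say nothing of it for these libraries. With 1 library per group, p-values measure the spread between these libraries. Levels are given as CPM, the UMIs (molecule counts) of a gene per 1000000 UMIs summed over a cell class in a library, and 3 values in a row are always in the order TN, 3D cold, 14D cold.

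The 6 libraries held 68103 barcodes and 52068837 to 88508349 UMIs each, and 57326 cells passed the filters. Aged 14D cold stood apart: its barcodes held a median of 2588 UMIs against 6232 to 8954 in the other 5 libraries, and 36.5% of its kept cells were under 2000 UMIs. Between 30 and 44 barcodes were shared by any pair of libraries. Cells were put into classes by counting markers that did not include an Adamts gene, which gave 34886 fibroblasts, 4092 blood endothelial-like, 682 pericyte-like and 455 smooth muscle-like cells. Within the fibroblasts there were 15764 Dpp4+ fibroblast-like, 11522 Icam1+ preadipocyte-like and 3743 Cd142+ fibroblast-like cells, these being the adipocyte stem and progenitor cell (ASPC) populations of this depot. Between 6 and 10 of the 10 markers of each list were highest in their own class, and the fewest were found for Icam1+ and Cd142+ cells, with 6 each. The ASPC classes were cut from a score, with 1554 fibroblasts close to the cut, and may differ from the study's own clusters. Smooth muscle-like cells numbered 19 in aged 3D cold, so their age difference was not tested, and the 29 lymphatic endothelial-like and 125 Schwann-like cells were too few for comparison.

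All 9 genes are protein-coding genes of the mouse assembly GRCm38. Adamts1 (chr16:85793827-85803113) and Adamts5 (chr16:85856173-85901828) lie 53.059 kb apart on the minus strand with no protein-coding gene between them. Adamts2 lies at chr11:50602084-50807573 on the plus strand, Adamts12 at chr15:11064790-11349231 on the plus strand and Adamts15 at chr9:30899155-30922452 on the minus strand. Adamts10 spans chr17:33524204-33553782 (plus), Adamts16 chr13:70727802-70841811 (minus), Adamts9 chr6:92772699-92943492 (minus) and Adamts4 chr1:171250421-171260637 (plus). Exons of Adamts9 overlap A730049H05Rik and Gm15737 on the opposite strand. Whether reads were counted by strand is not given in the sources used here, so the counts of members with such overlaps are uncertain to that extent.

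RefSeq promoters, 250 bases before to 50 after the gene start on GRCm38.p6, matched 4 of the 9 genes (Adamts1, Adamts2, Adamts9 and Adamts12). The promoters of Adamts2 and Adamts12, which were both lower in aged cells of all 3 ASPC classes, are shown with that of Adamts1, which was lower in none of them. Capitals mark matches, on either strand, to a GC box (GGGCGG) or a TATA box (TATAAA).
Adamts1, chr16:85803064-85803363, minus strand: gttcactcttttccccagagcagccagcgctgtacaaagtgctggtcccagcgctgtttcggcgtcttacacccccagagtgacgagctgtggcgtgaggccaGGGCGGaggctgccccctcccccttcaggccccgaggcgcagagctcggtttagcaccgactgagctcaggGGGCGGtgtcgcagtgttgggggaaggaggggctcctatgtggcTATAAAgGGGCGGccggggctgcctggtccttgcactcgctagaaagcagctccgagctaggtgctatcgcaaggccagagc
Adamts2, chr11:50601835-50602134, plus strand: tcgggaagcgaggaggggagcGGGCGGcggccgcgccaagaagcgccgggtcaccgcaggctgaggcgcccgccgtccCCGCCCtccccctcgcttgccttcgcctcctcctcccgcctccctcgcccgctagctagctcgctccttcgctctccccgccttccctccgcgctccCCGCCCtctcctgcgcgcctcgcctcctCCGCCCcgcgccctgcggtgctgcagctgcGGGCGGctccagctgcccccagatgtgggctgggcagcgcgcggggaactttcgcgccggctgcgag
Adamts12, chr15:11064523-11064822, plus strand: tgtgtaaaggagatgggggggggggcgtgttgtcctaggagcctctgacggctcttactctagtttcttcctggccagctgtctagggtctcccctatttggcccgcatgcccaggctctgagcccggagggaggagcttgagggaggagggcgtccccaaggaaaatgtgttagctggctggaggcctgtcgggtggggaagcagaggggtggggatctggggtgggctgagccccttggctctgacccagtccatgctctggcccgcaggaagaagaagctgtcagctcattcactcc
Adamts1 held 3 GC boxes and a TATA box, Adamts2 held 5 GC boxes, and Adamts12 held neither motif. Among all 32851 promoters of the table, 35.7% held the GC box and 13.6% the TATA box. No match overlapped another. The AP-1 (TGANTCA), CRE (TGACGTCA) and SMAD (CAGACA) motifs were present in 7.81%, 1.79% and 21.0% of all promoters and in none of the 4 matched here. The GC content was 64.7% for Adamts1, 77.3% for Adamts2, 70.0% for Adamts9 and 62.0% for Adamts12, against a median of 52.7%. Adamts2 held 41 CpG dinucleotides and Adamts12 held 7, which is also the median over all promoters.

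Across cell classes the 9 genes had distinct distributions. Adamts5 was highest in Dpp4+ fibroblast-like cells, Adamts9 in blood endothelial-like cells, Adamts4 in mural cells (pericyte-like and smooth muscle-like), Adamts1 in smooth muscle-like cells, and Adamts16 was almost entirely in Dpp4+ cells. These differences were tested within libraries, over 18 sums of 3 ASPC classes or 36 sums of 6 classes, with the library as a block (edgeR quasi-likelihood test, Benjamini-Hochberg adjusted over all genes). Between Dpp4+ and Icam1+ cells 8 of the 9 genes passed the threshold of 0.05, where 68.5% of all 12499 genes did. Between Dpp4+ and Cd142+ cells the count was also 8, with 50.5% of all genes, and between Icam1+ and Cd142+ cells it was 5, with 42.1%. In the fit over 6 classes the share of all genes past the threshold was 78.5% between Dpp4+ and endothelial-like cells, 51.2% and 51.1% between Icam1+ or Cd142+ and pericyte-like cells, 49.3% and 47.4% between endothelial-like and pericyte-like or smooth muscle-like cells, and 19.6% between pericyte-like and smooth muscle-like cells. A large share of all genes differed between classes, so the counts themselves say little about the family.

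**Figure D1:**
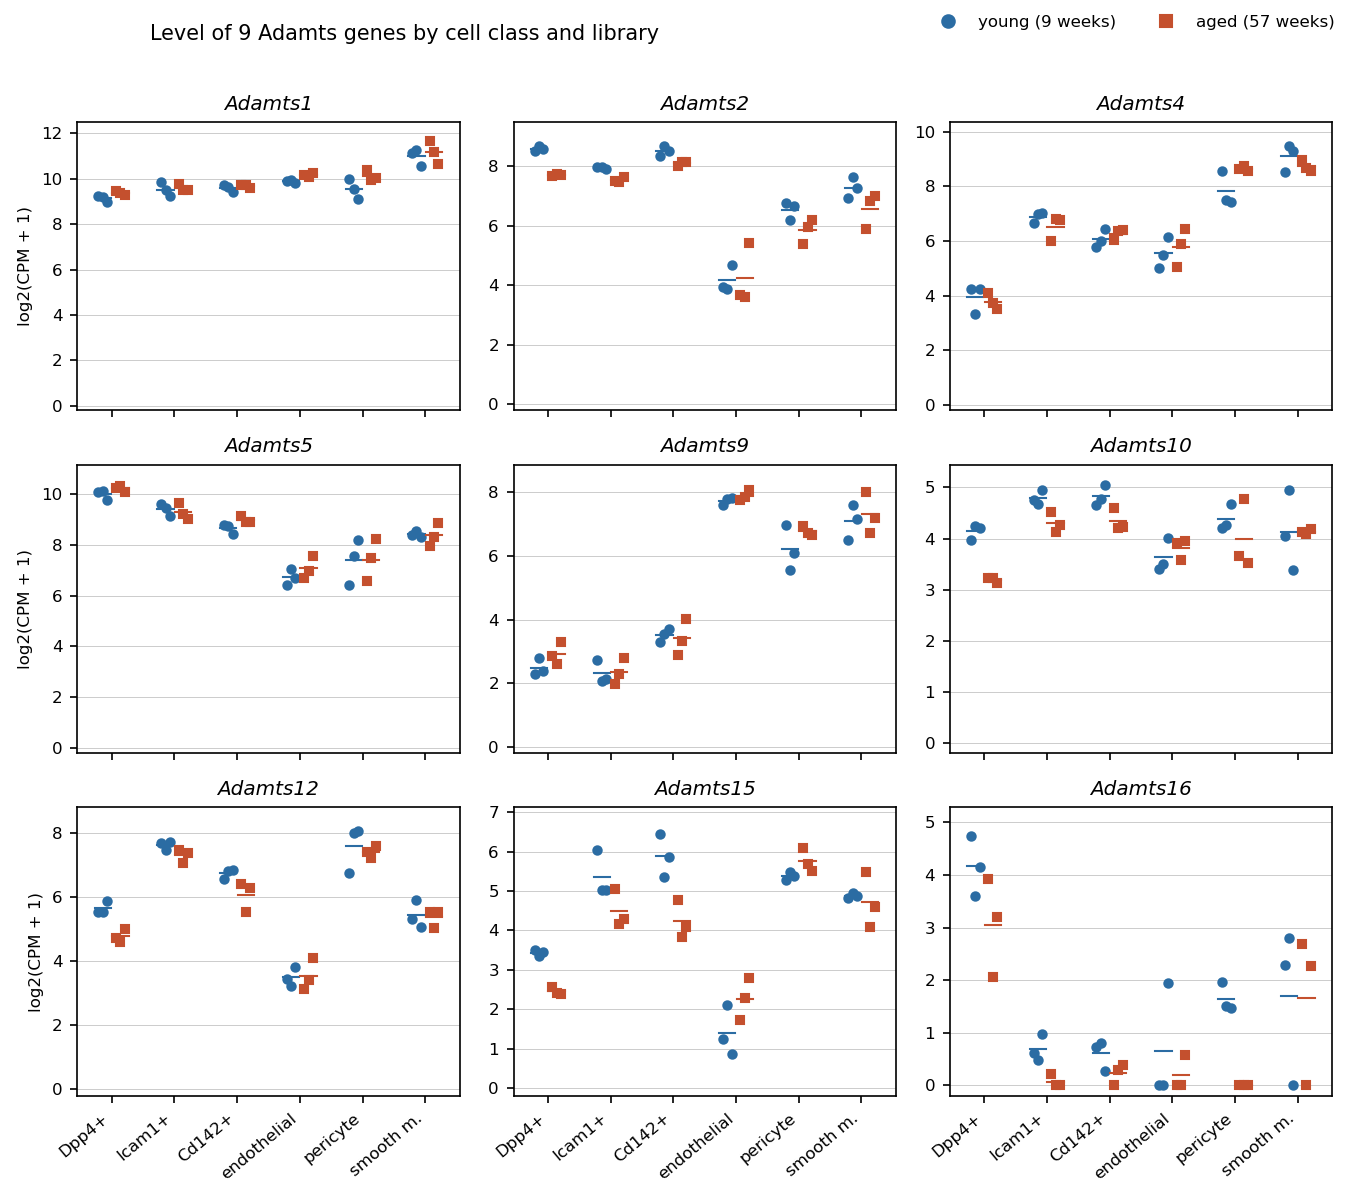
Level of each of the 9 Adamts genes as log2(CPM + 1) in 6 cell classes. Each point is 1 library, blue circles for the 3 young and red squares for the 3 aged libraries, from left to right TN, 3D cold and 14D cold, and short lines mark group means. Adamts9 sat between 194 and 265 CPM in all 6 endothelial sums and below 16 CPM in every ASPC sum, and Adamts16 was above 3 CPM in each Dpp4+ sum.

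Adamts5, an aggrecan- and versican-cleaving protease, stood at 1105 ± 141 CPM (SD, n = 6 libraries) in Dpp4+ cells, 655 ± 117 CPM in Icam1+ cells and 453 ± 70.7 CPM in Cd142+ cells. The Dpp4+ level exceeded the Icam1+ level by 0.70 on the log2 scale and the Cd142+ level by 1.24 (adjusted p = 3.37e-07 and 6.37e-10). Smooth muscle-like (340 ± 71.3 CPM), pericyte-like (187 ± 91.6 CPM) and blood endothelial-like cells (122 ± 35.5 CPM) followed in that order, and the last pair did not differ beyond their spread (adjusted p = 0.0585). After every cell had been thinned to 2000 UMIs, 82.6% of Dpp4+ cells and 14.5% of endothelial-like cells held an Adamts5 UMI. The 259 immune-like cells that remained gave 6.56% (exact 95% interval 3.87% to 10.3%). The shares in the other classes are set beside this level, and where the immune-like UMIs came from was not tested.

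Adamts1, whose product cleaves versican and also binds vascular endothelial growth factor, was spread over every stromal class. It stood at 616 ± 68.6 CPM in Dpp4+ cells, 760 ± 114 in Icam1+, 793 ± 63.5 in Cd142+, 948 ± 272 in pericyte-like, 1050 ± 130 in endothelial-like and 2230 ± 631 CPM in smooth muscle-like cells (SD, n = 6). Smooth muscle-like cells exceeded pericyte-like cells by 1.26 on the log2 scale (adjusted p = 1.4e-10), whereas Icam1+, Cd142+ and pericyte-like cells did not differ beyond their spread (0.06 ± 0.05 SE from Icam1+ to Cd142+, adjusted p = 0.384, and adjusted p = 0.643 from Cd142+ to pericyte-like). The share of cells with an Adamts1 UMI after thinning was 89.1% in smooth muscle-like, 66.3% in endothelial-like and 57.7% in Dpp4+ cells, against 6.95% in immune-like cells. In aged 14D cold the immune-like share was 27.6% of only 29 cells. The other 5 libraries, with 39 to 55 such cells each, gave 2.56% to 5.56%.

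Adamts9, whose product cleaves versican and is held near the cell surface, stood at 225 ± 23.6 CPM in endothelial-like cells and at 5.68 ± 1.75 CPM in Dpp4+ cells, a log2 difference of 5.27 ± 0.17 SE (adjusted p = 6.28e-25). Smooth muscle-like cells (155 ± 61.7 CPM) and pericyte-like cells (94.1 ± 31.6 CPM) were lower than endothelial-like cells by 0.59 and 1.43 on the log2 scale (adjusted p = 0.0116 and 6.78e-08). Among ASPCs, Cd142+ cells were highest at 10.4 ± 3.01 CPM, and the Dpp4+ and Icam1+ levels did not differ beyond their spread (adjusted p = 0.0839). The thinned share with an Adamts9 UMI was 29.4% in endothelial-like and 15.3% in pericyte-like cells. The 1.02% of fibroblasts lay below the 1.93% of immune-like cells, and where the UMIs of either came from was not tested.

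Adamts4, the other main aggrecan-cleaving protease, stood at 500 ± 140 CPM in smooth muscle-like and 321 ± 115 CPM in pericyte-like cells, which did not differ beyond their spread (0.65 ± 0.25 SE, adjusted p = 0.0693). Within ASPCs it was at 13.9 ± 3.88 CPM in Dpp4+, 72.1 ± 13.4 in Cd142+ and 107 ± 24.2 CPM in Icam1+ cells. The Icam1+ level was above the Dpp4+ level by 2.99 ± 0.18 SE on the log2 scale (adjusted p = 1e-10) and above the Cd142+ level by a smaller margin (adjusted p = 0.012). After thinning, 49.3% of smooth muscle-like, 37.1% of pericyte-like and 2.07% of Dpp4+ cells held an Adamts4 UMI. None of the 259 immune-like cells did, and 3 counts, an approximate upper 95% limit for a count of 0, would be a share of 1.16%. Before thinning, 5 of 290 immune-like cells (1.72%) held an Adamts4 UMI.

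Adamts15, a proteoglycan-cleaving member found in fewer cells, stood at 7.15 ± 2.97 CPM in Dpp4+ cells, 32.4 ± 17.0 in Icam1+ and 39.6 ± 27.8 CPM in Cd142+ cells. Icam1+ and Cd142+ cells exceeded Dpp4+ cells by 2.21 and 2.42 on the log2 scale (adjusted p = 8.16e-10 and 2.21e-09) and did not differ from each other beyond their spread (adjusted p = 0.285). Pericyte-like cells held 47.5 ± 10.6 CPM and endothelial-like cells 2.94 ± 1.87 CPM, the latter on 45 UMIs in all. The thinned shares were 10.1% of pericyte-like, 6.34% of Cd142+, 5.35% of Icam1+ and 1.27% of Dpp4+ cells, against 0.772% of immune-like cells.

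Adamts2, the procollagen N-proteinase, stood at 324 ± 59.3 CPM in Cd142+ cells, 299 ± 99.5 CPM in Dpp4+ cells and 217 ± 35.0 CPM in Icam1+ cells. Dpp4+ and Cd142+ cells did not pass the threshold (0.21 ± 0.08 SE, adjusted p = 0.0509), and Icam1+ cells were below Dpp4+ cells by 0.36 on the log2 scale (adjusted p = 0.00112). The level was 129 ± 46.2 CPM in smooth muscle-like, 76.3 ± 24.7 in pericyte-like and 19.7 ± 11.9 CPM in endothelial-like cells, the last a log2 difference of -4.01 from Dpp4+ cells (adjusted p = 1.11e-19). The endothelial-like share with an Adamts2 UMI, 2.08% after thinning, was below that of immune-like cells (3.09%).

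Adamts12 was a gene of Icam1+ (178 ± 28.1 CPM) and pericyte-like cells (190 ± 62.3 CPM), which did not differ beyond their spread (adjusted p = 0.232). Cd142+ cells (87.9 ± 25.8 CPM) and Dpp4+ cells (38.3 ± 13.8 CPM) were lower than Icam1+ cells, by 1.07 and 2.32 on the log2 scale (adjusted p = 3.94e-07 and 2.84e-12). Endothelial-like cells held 10.9 ± 3.25 CPM. The thinned share was 32.7% in pericyte-like, 28.3% in Icam1+ and 7.55% in Dpp4+ cells, against 1.54% in immune-like cells.

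Adamts10 and Adamts16 were sparse. Adamts10, the fibrillin-binding member, stood at 12.4 ± 4.81 CPM in Dpp4+ cells, 22.9 ± 5.01 in Icam1+ and 23.5 ± 5.47 CPM in Cd142+ cells, and the last pair did not differ beyond their spread (adjusted p = 0.936). Its thinned shares were 2.69% of Dpp4+ and 4.67% of Cd142+ cells, against 2.32% of immune-like cells. Adamts16 had 1901 of its 2020 fibroblast UMIs in Dpp4+ cells (13.2 ± 7.79 CPM), with 34 UMIs in Icam1+ and 10 in Cd142+ cells. The log2 difference of Icam1+ from Dpp4+ cells was -5.15 ± 0.24 SE (adjusted p = 4.64e-12), and 2.73% of thinned Dpp4+ cells held an Adamts16 UMI against 0.0890% of Icam1+ cells.

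The genes whose level followed each member most closely over the 36 sums were named from 12534 genes by Pearson's r of log2(CPM + 1), as a description over points that share libraries. Tspan2 (r = 0.975), Stom and Bcam followed Adamts9, Nova1 (0.959), Dsel and Vldlr followed Adamts5, and Clec3b (0.955), Tmeff2 and Serping1 followed Adamts2. Tuba1a (0.948), Col6a3 and Col5a3 followed Adamts12, and Naf1 (0.937), Sort1 and Itga7 followed Adamts4. Ppp1r15a (0.919), Foxf1 and Stard10 followed Adamts1, and Nnmt (0.889), Vtn and Snhg18 followed Adamts15. The highest r was lower for the sparse pair, 0.810 for Adamts16 (Oxtr, then Slc6a13 and Wnt1) and 0.752 for Adamts10 (Nrep, then Pdgfrl and Sec11a).

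The age comparison asked whether protease mRNA in ASPCs differed between young and aged iWAT over the 3 temperatures. In all fibroblasts as 1 class, Adamts2, Adamts10, Adamts15 and Adamts16 were lower in aged mice and no member was higher. That is 4 of the 9 genes lower and 0 higher, where 5.48% and 6.06% of 14025 genes were (edgeR quasi-likelihood test with temperature as a covariate, adjusted over all genes tested). The median log2 fold change of the 9 was -0.26, beside -0.01 for all genes.

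Adamts2 stood at 331, 360 and 343 CPM in the young fibroblast sums and at 200, 211 and 218 CPM in the aged sums. The ages did not overlap, and the log2 fold change of aged over young was -0.73 ± 0.06 SE (adjusted p = 0.000989). Adamts15 was at 33.9, 19.97 and 20.9 CPM in young and 21.8, 10.6 and 10.1 CPM in aged fibroblasts, lower in aged mice at each temperature although aged TN reached the level of young cold (-0.87 ± 0.09, adjusted p = 0.00307). Adamts16 was at 14.1, 5.73 and 9.59 CPM in young and 4.61, 1.34 and 4.23 CPM in aged fibroblasts, with no overlap (-1.61 ± 0.15, adjusted p = 0.00205). Adamts10 was at 19.4, 21.4 and 22.9 CPM in young and 17.5, 12.8 and 12.5 CPM in aged fibroblasts. Its ages did not overlap either, but the difference at TN was small and the call (-0.59 ± 0.14, adjusted p = 0.0381) was lost without any one of the 4 cold libraries (adjusted p up to 0.145).

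The other 5 genes did not pass. Adamts1 stood at 737, 665 and 558 CPM in young and 816, 720 and 693 CPM in aged fibroblasts, higher in aged mice at each temperature but overlapping (0.18 ± 0.07 SE, adjusted p = 0.136). Adamts5 (910, 868 and 706 against 898, 867 and 806 CPM) and Adamts4 (49.3, 58.3 and 60.6 against 49.5, 64.9 and 56.4 CPM) were interleaved between the ages. Adamts12 was at 101, 100 and 112 CPM in young and 113, 73.0 and 81.7 CPM in aged fibroblasts, higher in the aged library at TN and lower in both aged cold libraries (adjusted p = 0.226). Adamts9 was within 4.51 to 8.91 CPM throughout.

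The make-up of the fibroblasts moved with age. Dpp4+ cells, which held nearly all Adamts16, made up 53.6%, 49.2% and 55.2% of young and 29.4%, 39.3% and 40.6% of aged fibroblasts. Summed RNA of 8 adipocyte genes was at 24.1, 36.5 and 42.6 CPM in young and 38.5, 59.3 and 63.0 CPM in aged fibroblasts, with at most 1 of the 8 genes at 0 in a sum, higher in aged mice at each temperature but overlapping. Summed RNA of the 10 blood endothelial markers was at 8.85, 9.11 and 11.3 CPM in young and 13.2, 11.4 and 37.7 CPM in aged fibroblasts, without overlap and with none of the 10 at 0, against 7783 to 9905 CPM in endothelial-like cells. In Dpp4+ cells it was 8.95 to 11.6 CPM in young and 13.5 to 20.4 CPM in aged sums, and in Cd142+ cells 10.2 to 11.4 CPM against 13.8 to 57.6 CPM. Summed RNA of 5 red blood cell genes was at 3.89, 278 and 19.3 CPM in young and 112, 354 and 136 CPM in aged fibroblasts, also higher in aged mice at each temperature but overlapping. The part of these RNAs in the results was not tested. The same comparisons were therefore made within each ASPC class.

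**Figure D2:**
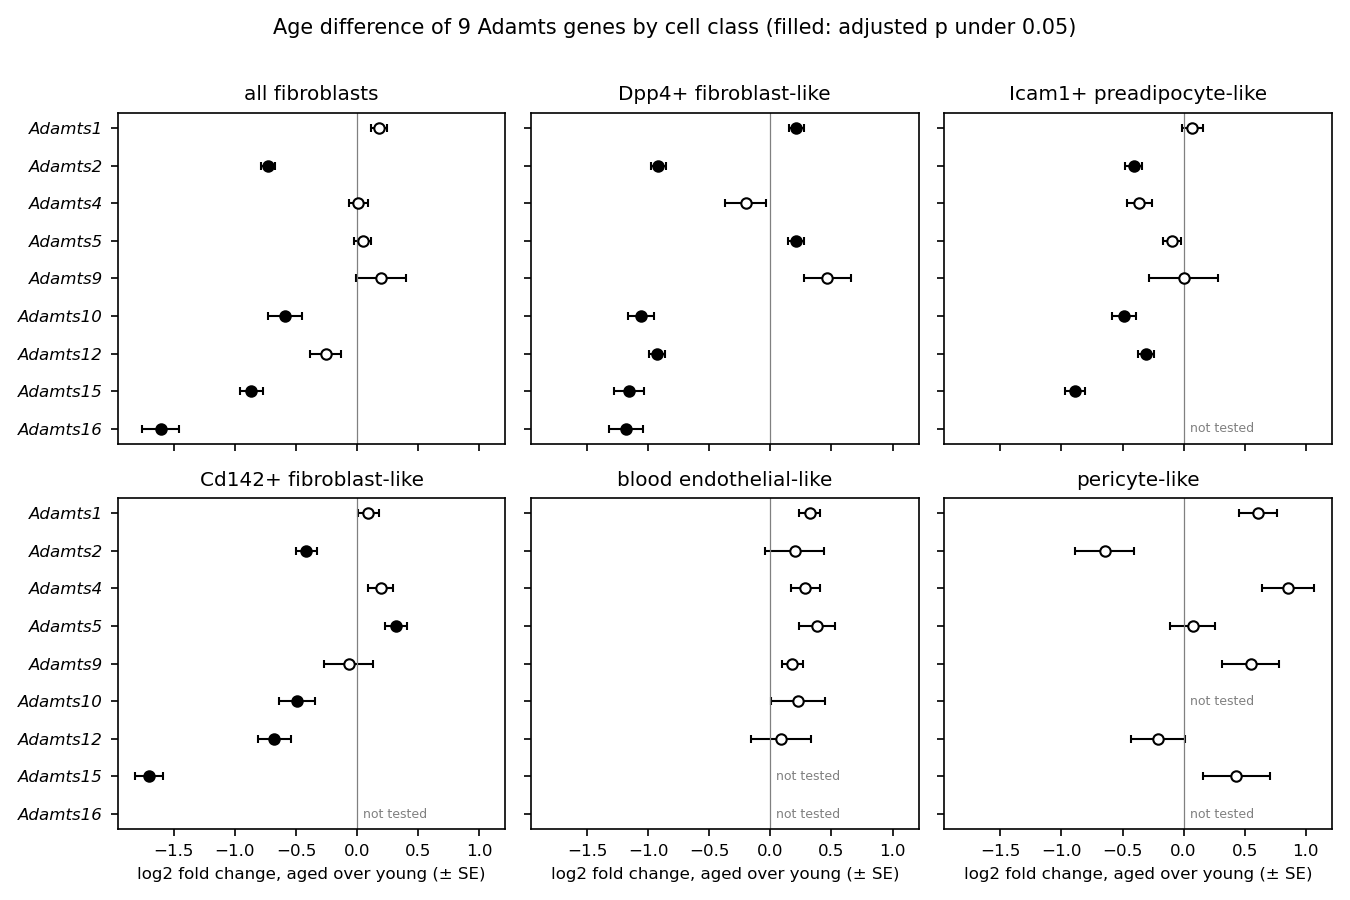
Log2 fold change of aged over young (± SE) for each Adamts gene in all fibroblasts and in 5 cell classes, from 3 aged and 3 young library sums per class. Filled circles passed an adjusted p of 0.05. Adamts2, Adamts10, Adamts12 and Adamts15 were filled and left of 0 in each of the 3 ASPC classes, and no circle was filled in endothelial-like or pericyte-like cells.

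Dpp4+ fibroblast-like cells showed the most age differences, with 5 genes lower and 2 higher in aged mice, where 8.44% of 12574 genes were lower and 8.79% higher. Adamts2 was at 366, 412 and 387 CPM in young and 205, 214 and 208 CPM in aged Dpp4+ cells (-0.92 ± 0.06, adjusted p = 5.38e-07). Adamts10 was at 14.7, 17.9 and 17.6 CPM in young and 8.35, 8.41 and 7.74 CPM in aged cells (-1.06 ± 0.10, adjusted p = 1.69e-05). In neither gene did the ages come close to each other. Adamts12 was at 45.4, 45.8 and 58.4 CPM in young and 25.7, 23.1 and 31.3 CPM in aged Dpp4+ cells, a log2 fold change of -0.93 ± 0.07 (adjusted p = 1.23e-06). Adamts15 was at 10.4, 9.18 and 9.90 CPM against 4.87, 4.31 and 4.23 CPM (-1.16 ± 0.12, adjusted p = 2.94e-05), each young value thus well above each aged one. Adamts16 was at 25.8, 11.1 and 16.8 CPM in young and 14.1, 3.17 and 8.18 CPM in aged Dpp4+ cells, lower with age at each temperature but with aged TN above young 3D cold (-1.18 ± 0.14, adjusted p = 5.92e-05). These 5 calls held without any single library. The 10 pericyte markers summed to 32.1 to 34.1 CPM in young and 23.6 to 29.0 CPM in aged Dpp4+ cells, and their part in the decrease of Adamts12 and Adamts15, which pericyte-like cells also hold, was not tested.

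Both genes that were higher in aged Dpp4+ cells changed little. Adamts1 was at 610, 590 and 501 CPM in young and 702, 661 and 630 CPM in aged cells, with no overlap (0.21 ± 0.06 SE, adjusted p = 0.0323). Adamts5 was at 1085, 1115 and 860 CPM in young and 1203, 1277 and 1090 CPM in aged cells, with young 3D cold above aged 14D cold (0.21 ± 0.06, adjusted p = 0.0442). The Adamts1 call was lost without any one of 5 libraries, all but aged 14D cold (adjusted p up to 0.139). The Adamts5 call was lost without any one of the 6 (0.0596 to 0.224). Adamts4, at 18.2, 9.06 and 17.8 CPM in young and 15.9, 12.2 and 10.5 CPM in aged Dpp4+ cells, and Adamts9, at 3.91, 5.92 and 4.22 against 6.17, 5.08 and 8.75 CPM, did not pass (adjusted p = 0.47 and 0.124), and the ages overlapped in both.

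In Icam1+ preadipocyte-like cells 4 of 8 tested genes were lower in aged mice and none was higher, where 4.75% and 6.68% of 12341 genes were. Adamts15 was at 64.3, 31.5 and 31.4 CPM in young and 32.1, 16.8 and 18.6 CPM in aged Icam1+ cells (-0.89 ± 0.08, adjusted p = 0.000232). Aged TN thus sat at the young cold level, while each temperature on its own showed the age difference. Adamts2 was at 251, 253 and 240 CPM in young and 181, 177 and 198 CPM in aged cells (-0.41 ± 0.07, adjusted p = 0.00546), without overlap. Adamts10 was at 25.9, 24.7 and 30.0 CPM against 22.0, 16.6 and 18.2 CPM (-0.49 ± 0.10, adjusted p = 0.0147), also without overlap. Adamts12 was at 204, 176 and 212 CPM in young and 176, 133 and 167 CPM in aged Icam1+ cells, with young 3D cold and aged TN alike (-0.31 ± 0.06, adjusted p = 0.015). The Adamts12 call was lost without young 3D cold, aged 3D cold or aged 14D cold (adjusted p up to 0.121). Adamts4 was at 101, 126 and 130 CPM in young and 62.5, 111 and 109 CPM in aged cells and just missed the threshold (-0.36 ± 0.10, adjusted p = 0.0504). Adamts1 (915, 733 and 595 against 864, 724 and 728 CPM), Adamts5 (773, 691 and 562 against 795, 597 and 510 CPM) and Adamts9 (5.69, 3.23 and 3.38 against 2.95, 3.92 and 5.90 CPM) overlapped between the ages, with adjusted p of 0.666, 0.468 and 0.999. Adamts16 was not tested in Icam1+ cells, where it had 9, 7 and 15 UMIs in young and 3, 0 and 0 UMIs in aged libraries.

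In Cd142+ fibroblast-like cells 4 of 8 tested genes were lower and 1 was higher in aged mice, where 5.16% and 5.3% of 10749 genes were. Adamts15 showed the widest age difference of any member tested within an ASPC class, at 85.7, 39.7 and 56.7 CPM in young and 26.3, 13.1 and 16.1 CPM in aged Cd142+ cells (-1.70 ± 0.11, adjusted p = 1.38e-08). All 3 young values lay above all 3 aged ones. Adamts12 was at 94.2, 112 and 115 CPM in young and 83.7, 45.4 and 76.8 CPM in aged cells (-0.68 ± 0.14, adjusted p = 0.00303). Aged 3D cold held its lowest value, and without either 3D cold library the fold change was -0.39. The 10 markers of pericyte-like cells, in which Adamts12 and Adamts15 were also high, summed to 509, 560 and 536 CPM in young and 450, 358 and 320 CPM in aged Cd142+ cells, without overlap and with at most 2 of the 10 at 0, against 6106 to 8721 CPM in pericyte-like cells. Their part in both decreases was not tested. Adamts2 was at 328, 416 and 368 CPM in young and 260, 285 and 284 CPM in aged Cd142+ cells (-0.42 ± 0.08, adjusted p = 0.00299), without overlap. Adamts10 was at 24.1, 26.4 and 31.9 CPM against 23.1, 17.6 and 17.7 CPM (-0.49 ± 0.15, adjusted p = 0.0389), and without any one of the 4 cold libraries the call was lost (0.0875 to 0.347). Adamts5 was at 437, 431 and 344 CPM in young and 560, 469 and 476 CPM in aged cells, higher in aged mice without overlap (0.32 ± 0.09, adjusted p = 0.0263), and the call was lost without either 14D cold library (0.225 and 0.215). Adamts1 (839, 791 and 679 against 844, 836 and 771 CPM), Adamts4 (53.4, 63.7 and 86.1 against 64.4, 80.8 and 84.0 CPM) and Adamts9 (8.86, 10.6 and 12.1 against 6.44, 9.13 and 15.2 CPM) overlapped between the ages, with adjusted p of 0.582, 0.262 and 0.883. Adamts16, with 10 UMIs in Cd142+ cells, was not tested.

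No member passed the age test in the vascular classes, where 0.345% of genes did in endothelial-like and 0.514% in pericyte-like cells. Of the 9 members 7 were tested in each of these classes, and DESeq2 also called 0 in both. Adamts1 was at 969, 980 and 889 CPM in young and 1158, 1064 and 1239 CPM in aged endothelial-like cells, without overlap (0.32 ± 0.09, adjusted p = 0.166). Adamts9, the leading endothelial member, was at 194, 221 and 224 CPM in young and 213, 229 and 265 CPM in aged cells, which overlapped (0.18 ± 0.08, adjusted p = 0.414). Adamts4 and Adamts2, whose endothelial values are given with the temperature comparison, had adjusted p of 0.373 and 0.78 for age. Adamts5 stood at 84.8, 132 and 103 CPM in young and 104, 123 and 186 CPM in aged endothelial-like cells (adjusted p = 0.328). Adamts10 (9.57 to 15.1 CPM) and Adamts12 (7.73 to 16.4 CPM) overlapped between the ages as well, and Adamts15 and Adamts16, with 45 and 8 UMIs, were not tested. In pericyte-like cells Adamts1 was at 1031, 739 and 553 CPM in young and 1341, 987 and 1039 CPM in aged libraries (0.61 ± 0.16, adjusted p = 0.11). Adamts4 was at 374, 180 and 171 CPM in young and 398, 429 and 376 CPM in aged pericyte-like cells, each aged value being above each young one although young TN came close (0.85 ± 0.22, adjusted p = 0.0998). Adamts2 went the other way, at 108, 73.3 and 100 CPM in young and 40.9, 61.9 and 73.1 CPM in aged pericyte-like cells, with aged 14D cold just below young 3D cold (-0.65 ± 0.24, adjusted p = 0.352). Adamts9 was at 126, 45.8 and 66.9 CPM against 123, 104 and 99.2 CPM (adjusted p = 0.414), and Adamts15 at 38.0, 44.0 and 40.5 CPM against 67.3, 50.9 and 44.4 CPM (adjusted p = 0.658). Adamts12 and Adamts5 overlapped between the ages (adjusted p = 0.807 and 0.938), and Adamts10 and Adamts16, with 54 and 3 UMIs, were not tested. Without either TN library Adamts1, Adamts4 and Adamts9 passed in pericyte-like cells, all higher in aged cells, and Adamts2 did not pass. The share of all genes past the threshold in those fits is not given here.

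Smooth muscle-like values are given without a test. Adamts1 was at 2273, 2468 and 1495 CPM in young and 3229, 2307 and 1605 CPM in aged cells, and Adamts4 at 372, 705 and 627 CPM against 505, 411 and 378 CPM, so that the ages overlapped in both genes. Adamts9 was at 90.0, 191 and 142 CPM in young and 259, 105 and 146 CPM in aged cells, with the aged TN sum highest.

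The age effect itself was compared between classes in fits with the library as a block. From Dpp4+ to Icam1+ cells the effect of 3 genes changed, where 4.01% of all genes passed: Adamts2 by 0.52 ± 0.08, Adamts10 by 0.56 ± 0.10 and Adamts12 by 0.63 ± 0.07 in log2 units, with adjusted p of 0.0099, 0.0173 and 0.0015. The fitted decrease of these 3 genes in aged mice was smaller in Icam1+ cells. The calls of Adamts2 and Adamts10 were lost without either 3D cold library (0.105 to 0.145), that of Adamts10 also by DESeq2, and that of Adamts12 held in both. From Dpp4+ to Cd142+ cells Adamts2 passed, by 0.51 ± 0.08 (adjusted p = 0.00031, with 2.69% of all genes past the threshold). From Icam1+ to Cd142+ cells Adamts4 and Adamts5 changed by 0.52 ± 0.11 and 0.39 ± 0.07 towards higher in aged mice, and Adamts15 by -0.81 ± 0.13 (adjusted p = 0.0166, 0.00317 and 0.00126, against 2.52% of genes). Compared with all fibroblasts, the age effects of Adamts2 and Adamts15 differed in endothelial-like cells (2.31% of genes), and those of Adamts4 and Adamts15 in pericyte-like cells (1.14%). Each of these 4 differences was lost without any one of at least 2 libraries and by DESeq2, which also lost the 3 between Icam1+ and Cd142+ cells. The Adamts15 difference between fibroblasts and endothelial-like cells rested on the 45 endothelial UMIs, at 1.37, 3.29 and 0.817 CPM in young and 2.30, 3.89 and 5.95 CPM in aged cells.

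The temperature comparison asked whether the same genes followed cold exposure, with age as a covariate. It was planned for all fibroblasts only, and the tests within classes were not in the plan. Adamts15 was lower in the cold in all fibroblasts, Icam1+ and Cd142+ cells, and Adamts16 in all fibroblasts and Dpp4+ cells. Adamts4 was higher in Icam1+, Cd142+ and endothelial-like cells, and Adamts5 was higher in pericyte-like and lower in Icam1+ cells. In Dpp4+ cells Adamts15 had log2 fold changes of -0.20 and -0.09 for 3D and 14D cold and did not pass (adjusted p = 0.591). Adamts4, with -0.73 and -0.21 in these cells, did not pass either (adjusted p = 0.109). In all fibroblasts 2 of 9 members passed, where 1.33% of 14343 genes did. Adamts15 had log2 fold changes of -0.89 for 3D cold and -0.86 for 14D cold over TN (adjusted p = 0.0291). Adamts16 had -1.46 and -0.36 (adjusted p = 0.0394), lost without either 3D cold library (0.0505 and 0.0651), and its 14D cold level lay between TN and 3D cold at both ages.

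In Icam1+ cells Adamts15 fell by 0.96 and 0.91 on the log2 scale in 3D and 14D cold (adjusted p = 0.00153), and in Cd142+ cells by 1.09 and 0.62 (adjusted p = 0.000322). In both classes, at both ages, TN was highest. Members past the threshold numbered 3 of 8 in Icam1+ cells, where 5.42% of genes passed, and 2 of 8 in Cd142+ cells, where 3.14% did. In Dpp4+ cells 2 of 9 passed, beside 7.09% of all genes, and Adamts16 fell by 1.53 and 0.66 (adjusted p = 0.000852). Adamts16 was at its lowest in 3D cold at both ages, and this call held without any single library. Adamts12 was the other Dpp4+ call, with log2 fold changes of -0.08 and 0.35 (adjusted p = 0.015), its 14D cold level being highest at both ages, and it was lost without young 14D cold (0.0503).

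**Figure D3:**
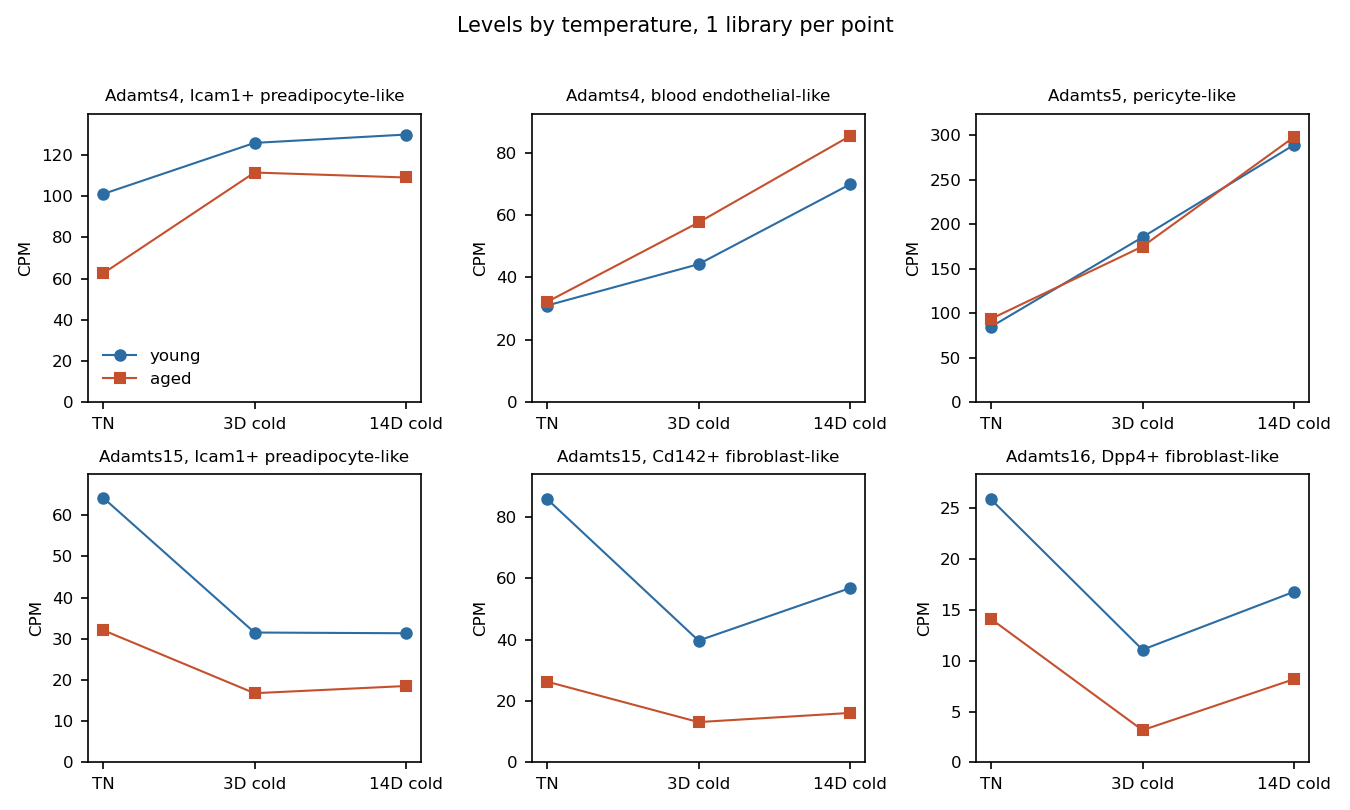
CPM at TN, 3D cold and 14D cold for 6 pairs of gene and class that passed the temperature test, blue circles for young and red squares for aged, 1 library per point. Adamts15 and Adamts16 were highest at TN at both ages, Adamts5 in pericyte-like cells went from 84.7 and 93.6 CPM at TN to 289 and 298 CPM after 14 days, and every axis starts at 0.

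Adamts4 rose with cold in Icam1+ cells, by 0.60 in 3D and 0.58 in 14D cold (adjusted p = 0.0365), from 101 to 126 and 130 CPM in young and from 62.5 to 111 and 109 CPM in aged cells. The Icam1+ call was lost without aged TN (0.0768), which held the lowest value. In endothelial-like cells Adamts4 was at 31.0, 44.2 and 69.8 CPM in young and 32.2, 57.6 and 85.3 CPM in aged libraries. Its log2 fold changes were 0.75 and 1.33 (adjusted p = 0.00638). In this class 2 of 7 tested members passed, where 1.69% of all genes did. Both ages gave the same order of temperatures, and the call held without any single library. It did not pass after the cells were thinned, nor when the cells with the most UMIs were left out. Fibroblast collagen RNA in these endothelial-like sums, given with Adamts2 below, was also highest in 14D cold at both ages. It was lower in 3D cold than at TN, unlike Adamts4, and its part in this result was not tested. In Cd142+ cells Adamts4 rose by 0.29 and 0.55 (adjusted p = 0.0479), a call lost without young TN or young 14D cold (0.0748 and 0.259).

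Adamts5 in pericyte-like cells was at 84.7, 185 and 289 CPM in young and 93.6, 175 and 298 CPM in aged libraries. Its log2 fold changes were 1.04 and 1.72 (adjusted p = 0.00329). In this class 1 of 8 tested members passed, where 0.929% of all genes did. The ages were close to each other at every temperature, and the call was lost without aged 14D cold (0.132). The 10 Dpp4+ fibroblast markers summed to 1174, 719 and 757 CPM in young and 582, 1113 and 2052 CPM in aged pericyte-like cells, against 12335 to 14547 CPM in Dpp4+ cells, with at most 2 of the 10 at 0 in a sum, and their part in this result was not tested. In Icam1+ cells Adamts5 fell by 0.26 and 0.54 (adjusted p = 0.0225), from 773 to 691 and 562 CPM in young and from 795 to 597 and 510 CPM in aged cells.

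Adamts2 was the other endothelial-like call. It was at 14.6, 13.7 and 24.9 CPM in young and 11.9, 11.3 and 41.7 CPM in aged endothelial-like cells, so that the 14D cold libraries were highest at both ages (log2 fold changes 0.00 and 1.38, adjusted p = 0.0402). The call was lost without either 3D cold library or aged 14D cold (0.0968, 0.167 and 0.269). In the same sums the fibroblast collagens Col1a1, Col1a2 and Col3a1 together stood at 1359, 783 and 2123 CPM in young and 961, 450 and 2273 CPM in aged cells, also highest in 14D cold, and the 10 Dpp4+ markers at 750 to 1623 CPM with none at 0. The part of fibroblast RNA in this result was not tested.

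Among the other genes of the pathway, the list of substrates outside the proteoglycans (collagens, fibrillins, fibronectin, thrombospondins and basement membrane proteins) held most of the age differences. In all fibroblasts 9 of 14 were lower and 1 higher in aged mice, where 5.48% and 6.06% of all genes were. The median log2 fold change of the list was -0.50, beside -0.01 for all genes. Fbn2, a fibrillin of elastic microfibrils, was at 6.55, 2.46 and 3.37 CPM in young and 1.31, 0.431 and 0.585 CPM in aged fibroblasts (-2.43 ± 0.15, adjusted p = 0.000481). Col1a1, a substrate of the procollagen N-proteinases, was at 6550, 4299 and 6371 CPM in young and 3063, 1550 and 2549 CPM in aged fibroblasts (-1.31 ± 0.11, adjusted p = 0.000998). Neither gene overlapped between the ages. Col1a2 and Col3a1 had log2 fold changes of -0.95 and -0.94 (adjusted p = 0.00605 and 0.00888), although young 3D cold was below aged TN in Col3a1. Thbs1, which encodes thrombospondin 1, was the only one of the 14 that was higher (0.70 ± 0.05, adjusted p = 0.000907) and is named for that reason. By class, 10 of 13 tested substrates were lower in aged Dpp4+ cells, 7 of 13 in Icam1+ and 7 of 14 in Cd142+ cells, with 0, 1 and 2 higher. The shares of all genes in these classes were 8.44%, 4.75% and 5.16% lower and 8.79%, 6.68% and 5.3% higher.

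**Figure D4:**
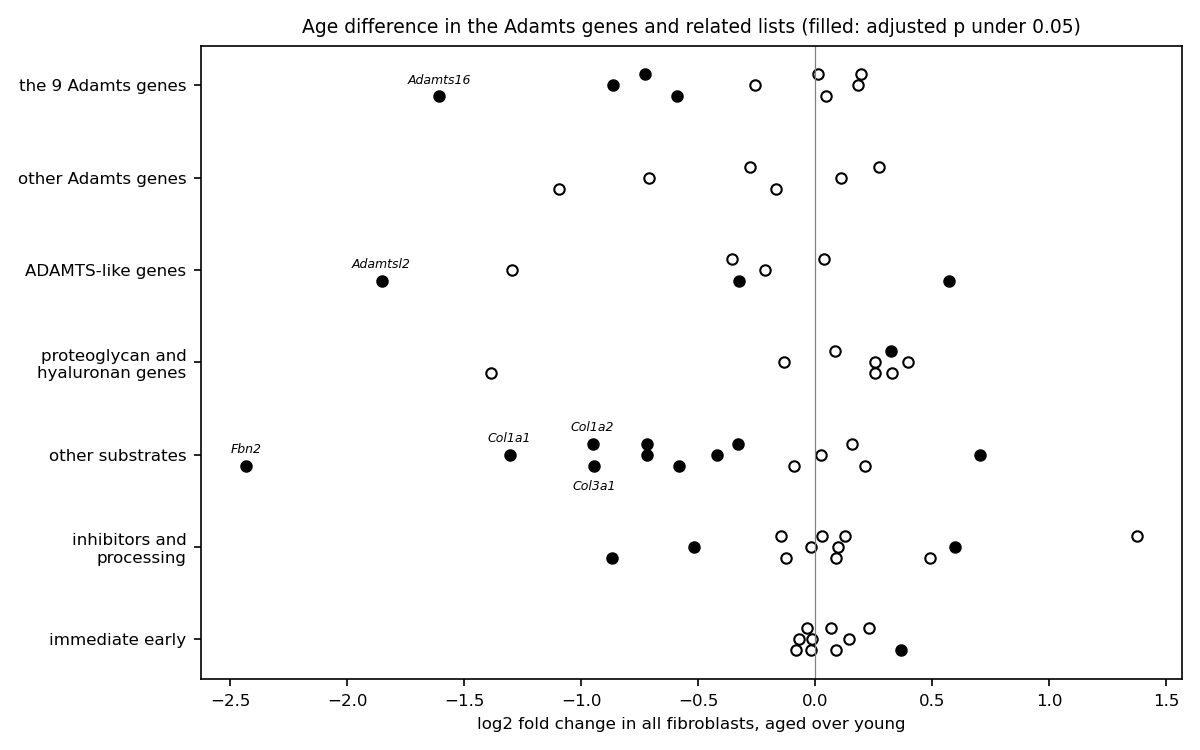
Log2 fold change of aged over young in all fibroblasts for the 9 Adamts genes and 6 lists of related genes, 1 circle per gene, filled where the adjusted p was under 0.05. In the list of other substrates 9 of 14 circles were filled left of 0 and 1 right of it, and Fbn2 at -2.43 was the leftmost of all.

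Of 13 inhibitors and processing enzymes 12 were tested in all fibroblasts, with 1 higher and 2 lower in aged mice. Among all genes 6.06% were higher and 5.48% lower, so these few calls say little about the list. Timp3, the main tissue inhibitor of ADAMTS proteases, was at 945, 1241 and 891 CPM in young and 1423, 1909 and 1363 CPM in aged fibroblasts, higher in aged mice without overlap (0.60 ± 0.07, adjusted p = 0.00495). It was also higher in aged Dpp4+, Icam1+ and Cd142+ cells, by 0.22, 0.95 and 0.87. Pcsk5 and Pcsk6, proprotein convertases of the furin family, were lower (-0.87 ± 0.11 and -0.52 ± 0.08, adjusted p = 0.00472 and 0.0116).

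Of the 13 proteoglycan and hyaluronan genes 8 were tested in all fibroblasts, and Cd44, the hyaluronan receptor, was higher (0.32 ± 0.05, adjusted p = 0.0132) and none lower. That stands beside 6.06% of all genes higher and 5.48% lower. By class, 3 of 6 tested were higher and 1 lower in aged Dpp4+ cells, 1 of 6 higher and 0 lower in Icam1+, 2 of 5 higher and 1 lower in Cd142+, 0 of 5 in endothelial-like and 1 of 4 higher in pericyte-like cells. The shares of all genes in the ASPC classes are those given with the substrates. Both directions together, they were 0.345% in endothelial-like and 0.514% in pericyte-like cells. Bgn, which encodes the proteoglycan biglycan, was the lower gene in Dpp4+ and in Cd142+ cells (-0.40 and -0.46, adjusted p = 0.0136 and 0.0111). The hyaluronan synthases Has1 and Has2 were higher in aged Dpp4+ cells (0.48 and 0.56, adjusted p = 0.0044 and 7.46e-05) and in Cd142+ cells (0.64 and 0.58, adjusted p = 0.000345 and 0.000526). Of the 7 ADAMTS-like genes, which encode related glycoproteins without a protease domain, Adamtsl2 and Adamtsl1 were lower (-1.85 and -0.33, adjusted p = 0.0127 and 0.0167) and Adamtsl3 was higher (0.57, adjusted p = 0.0205) in all fibroblasts. Adamtsl2 was at no more than 2.13 CPM in any fibroblast sum.

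The other 10 Adamts genes held from 5 UMIs for Adamts13 to 3648 for Adamts14 over all kept cells. Adamts14 thus held more than the member Adamts16, which had 2560. The rest were Adamts7 (942), Adamts6 (242), Adamts8 (173), Adamts3 (161), Adamts17 (159), Adamts20 (39), Adamts18 (36) and Adamts19 (15). Of these 10 genes 6 could be tested in all fibroblasts, and none passed for age. Adamts14, a second procollagen N-proteinase, was lower in aged Icam1+ cells (-0.54 ± 0.10, adjusted p = 0.00737). Adamts1 is also known as a gene that responds quickly to stimulation, so 10 immediate early genes were followed beside it. Of these Nr4a1 was higher in aged fibroblasts (0.36 ± 0.08, adjusted p = 0.0359) and the other 9 did not pass. In Dpp4+ cells, where Adamts1 passed, 2 of the 10 were higher and 1 lower, beside 8.79% and 8.44% of all genes. Icam1+ cells had 1 higher and Cd142+ cells 2, beside 6.68% and 5.3%, with 0 lower in either. The summed level of the 10 genes was 22571 to 24880 CPM in young and 20616 to 30254 CPM in aged fibroblasts, which overlapped. In Dpp4+ cells it was 19080 to 22296 CPM in young and 17704 to 24348 CPM in aged sums, also overlapping.

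For temperature, the count of substrates past the threshold was 10 of 13 in Dpp4+, 9 of 13 in Icam1+ and 8 of 14 in Cd142+ cells, 2 of 14 in all fibroblasts, 6 of 12 in endothelial-like and 2 of 12 in pericyte-like cells, which stands beside the shares of all genes given above. No ADAMTS-like gene passed outside Dpp4+ cells, where 1 of 6 did, and no other Adamts gene passed in any class.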

How the data were processed

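The 9 members and the pathway lists were chosen with earlier results of these data known. Each library was deposited as raw counts of UMIs per gene and barcode, which the authors made with Cell Ranger (3.1.0 per the file headers) on mm10. Barcodes were kept with over 200 genes, log10 UMIs and genes within 3 median absolute deviations (MAD) of the library median, and a mitochondrial share at most 3 MAD above it. Fibroblasts held at least 1 Pdgfra UMI and at most 2 markers of any other class. Other cells held no Pdgfra UMI and at least 4 of 10 markers of their lineage, 2 more than of any other. No doublet caller was run, and doublets between lineages that met these rules would remain. A fibroblast took the ASPC class with the highest mean z score of 10 markers if it was above 0 and led by 0.2.

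UMIs were summed per library and class and tested in R 4.3.3 with edgeR 4.0.16 (TMM, filterByExpr, quasi-likelihood F test, Benjamini-Hochberg adjustment over all genes tested, threshold 0.05), after checks on simulated data. Age was fitted over 6 sums with temperature as a factor (2 residual degrees of freedom), temperature over the same sums with age as a factor, class differences over 18 or 36 sums and differences of the age effect over 12 sums with the library as a block. The SE is the absolute log2 fold change over the root of F, and CPM carries no TMM factor. Exact (Clopper-Pearson) intervals of shares, and the limit of 3 counts given for a share of 0, cover counting error only. DESeq2 1.42.0 was an alternative. All members were named in every class tested for age, with up to 4 genes per pathway list of the largest age differences in all fibroblasts. Thbs1, Bgn, Has1 and Has2, Adamts14 and the class values of Timp3 were added after their values were seen. Gene positions are from GENCODE, and 1 overlap with another gene is not reported here.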

Additional observations from a re-analysis of the deposited data

Results flagged for a closer look

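The age effect (log2 fold change of aged over young) differed between 2 cell classes for 11 pairs of gene and class, each by a test of the difference itself (edgeR quasi-likelihood test, adjusted over all genes). Of 44 comparisons of this kind that could be fitted, 11 passed, where 1.14% to 4.01% of all genes did, depending on the pair of classes. The same genes and classes recur among the 44, which are thus not independent.

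Against Dpp4+ fibroblast-like cells, Icam1+ preadipocyte-like cells gave differences of 0.52 ± 0.08 SE for Adamts2, 0.56 ± 0.10 for Adamts10 and 0.63 ± 0.07 for Adamts12 (adjusted p = 0.0099, 0.0173 and 0.0015), and Cd142+ fibroblast-like cells gave 0.51 ± 0.08 for Adamts2 (0.00031). The first pair was lost without either 3D cold library (adjusted p = 0.105 and 0.114 for Adamts2, 0.142 and 0.145 for Adamts10), whereas Adamts12 and the Cd142+ difference held without any single library.

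From Icam1+ to Cd142+ cells the difference was 0.52 ± 0.11 for Adamts4, 0.39 ± 0.07 for Adamts5 and -0.81 ± 0.13 for Adamts15 (adjusted p = 0.0166, 0.00317 and 0.00126). Adamts4 was lost without young TN or aged 3D cold (0.0763 and 0.0881), and the others held without any single library.

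Between all fibroblasts and blood endothelial-like cells the difference was 0.94 ± 0.21 for Adamts2 and 2.09 ± 0.51 for Adamts15 (adjusted p = 0.0214 and 0.0315). Without either 14D cold library these were 0.49 and 0.50 for Adamts2 (0.668 and 0.695) and 1.28 for Adamts15 (0.373), and Adamts15 was also lost without either TN library (0.0708 and 0.0962). Between all fibroblasts and pericyte-like cells the difference was 0.84 ± 0.16 for Adamts4 and 1.31 ± 0.30 for Adamts15 (adjusted p = 0.000124 and 0.00316). Adamts4 was lost without any one of the 4 cold libraries (0.109 to 0.552), and without either TN library its difference was 1.26 and 1.23. Adamts15 was lost without either TN or either 3D cold library (0.0649 to 0.108). Col1a1, Col1a2 and Col3a1 together stood at 10286, 10047 and 11681 CPM in young and 3698, 4251 and 11581 CPM in aged pericyte-like cells. In Dpp4+ cells they stood at 26303, 15449 and 25469 CPM in young and 9898, 4606 and 7628 CPM in aged libraries. In aged 14D cold the pericyte-like sum was thus above that of Dpp4+ cells. The part of fibroblast RNA in the pericyte-like differences was not tested.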

How the results depend on the processing

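The alternatives were DESeq2, RLE size factors, no filter on low counts, fits without the temperature or age term, each library left out, cells thinned to 2000 UMIs, a fixed cell filter, a stricter gate, class scores set within each library, cells low in immediate early UMIs, and cells without the deepest 5%. The temperature tests outside all fibroblasts were not planned, and their alternatives were added after seeing the data. Of 168 single values 64 passed the threshold, and of their 1001 alternative values 143 lost the call and none changed sign. The call held in every alternative for 29. Another 82 alternative values gained a call, and 109 changed sign while past the threshold in neither fit. Leaving out the other factor, whose differences then enter the residual spread by construction, lost 32 of the 43 values it was run on. DESeq2 lost 13 of 64 and each library left out 5 to 12 of 64. RLE size factors and no filter lost none. For the other changes the cause was not tested.

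For age, members past the threshold without the temperature term numbered 1 in all fibroblasts (4 as reported), 4 in Dpp4+ (7), 0 in Icam1+ (4) and 1 in Cd142+ cells (5). In Cd142+ cells DESeq2 and class scores within each library each gave 2. In endothelial-like cells no filter gave 2 (0 as reported), and in pericyte-like cells (0) no filter, thinning and leaving out the deepest cells each gave 2 and the stricter gate 1. With each library left out, the counts were 3 to 5 in all fibroblasts, 5 to 7 in Dpp4+, 3 to 5 in Icam1+, 3 to 5 in Cd142+, 0 in endothelial-like and 0 to 3 in pericyte-like cells. The Cd142+ count was 3 without either 14D cold library, and the pericyte-like count 3 without either TN library. The shares of all genes past the threshold in these alternative fits are not given here.

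For temperature, leaving out the age term gave 0 in all fibroblasts (2 as reported), Dpp4+ (2), Icam1+ (3), Cd142+ (2) and endothelial-like cells (2). The stricter gate gave 0 in all fibroblasts. In endothelial-like cells thinning and leaving out the deepest cells each gave 0, and DESeq2 and cells low in immediate early UMIs each gave 1. In Cd142+ cells DESeq2, thinning, the fixed filter, class scores within each library and cells low in immediate early UMIs each gave 1, class scores within each library gave 1 in Dpp4+ and 1 in Icam1+ cells, and cells low in immediate early UMIs gave 0 in pericyte-like cells (1). With each library left out the counts were 1 to 3 in all fibroblasts, 2 to 4 in Dpp4+, 3 to 4 in Icam1+, 1 to 3 in Cd142+, 1 to 3 in endothelial-like and 0 to 3 in pericyte-like cells. The lone library left at a temperature is assumed to vary like the others.

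Class differences numbered 21 of 27, and 21 to 23 with each library left out. Differences of the age effect numbered 11, and 3 by DESeq2, 4 without the temperature term, 6 after thinning and 8 to 11 with each library left out. No paired analysis was possible because every library is the only replicate of its group, so that replicate numbers pair nothing. The temperature term of the age test sets the ages side by side at each temperature, and its removal is given above. The age test was not run in smooth muscle-like cells, and class differences have no temperature term to leave out. Adamts16 outside Dpp4+ cells and Adamts15 in endothelial-like cells rest on few UMIs, and the pericyte-like results on 682 cells. The shallow aged 14D cold library left 46.8% of its kept cells without a class, against 22.3% to 26.5% in the others.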
